A study of Mus musculus with 23 samples.

Results

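Reactive astrocyte genes are the genes that astrocytes raise after injury, inflammation or ischemia. The set described here holds 36 of them, picked by gene symbol from the 24411 rows of the count table, and all 36 symbols were found. RNA was sequenced from cortical astrocytes of 23 mice labelled as male, taken from dissociated tissue with magnetic beads against the astrocyte surface antigen ACSA-2. All mice carried 2 floxed copies of Aldh7a1, the gene of an aldehyde dehydrogenase. Mice called cKOAstro also carried 1 Slc1a3-CreER allele, a tamoxifen-inducible Cre recombinase placed at the gene of a glial glutamate transporter. Cre-negative littermates are called ConAstro. Every group received 4-hydroxytamoxifen at postnatal days 3 to 4, and tissue was collected at postnatal day 70. From postnatal day 21 the mice ate control chow or chow that contained sulforaphane (SFN), a plant compound that turns on the antioxidant regulator NRF2. There were 4 ConAstro and 7 cKOAstro libraries on the control diet, and 5 of SFN-fed ConAstro mice and 7 of SFN-fed cKOAstro mice, with 1 mouse each.

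Reactive astrocytes thicken their intermediate filaments and secrete protease inhibitors, complement proteins, chemokines and iron- or copper-binding proteins. Cytokines of the interleukin-6 family act through receptors such as OSMR and the shared subunit gp130 on STAT3, which switches on many of these genes, GFAP among them, and also SOCS3, the inhibitor that ends the signal. Toll-like receptor and tumour necrosis factor signals act through NF-kB and raise chemokines such as CXCL10 and CCL2. Earlier work on inflamed and ischemic mouse brain sorted such genes into those raised by both conditions (pan-reactive), those raised mainly by lipopolysaccharide and those raised mainly by ischemia. Several members are also made by other brain cells, for example Cd14 by microglia, S1pr3 by vessel cells and Vim by ependymal cells.

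Promoter sequence was available for 29 of the 36 genes, with 38 promoters in all, from RefSeq (GRCm38.p6, 250 bases before to 50 bases after the start). The promoters of 4 genes stand for the cytoskeletal, signalling and chemokine members described below. They lie at chr11:102897151-102897450 for Gfap (minus strand), chr11:117969317-117969616 for Socs3 (minus strand), chr5:92348840-92349139 for Cxcl10 (minus strand) and chr3:87970843-87971142 for Nes (plus strand). Capitals mark letters that match TTCNNNGAA (a STAT motif) in Gfap and Socs3, GGANTTTCC (an NF-kB motif, read on the other strand) followed by TGACNNNGC (an NRF2 motif, on the other strand) in Cxcl10, and TGACNNNGC on the other strand in Nes.
Gfap: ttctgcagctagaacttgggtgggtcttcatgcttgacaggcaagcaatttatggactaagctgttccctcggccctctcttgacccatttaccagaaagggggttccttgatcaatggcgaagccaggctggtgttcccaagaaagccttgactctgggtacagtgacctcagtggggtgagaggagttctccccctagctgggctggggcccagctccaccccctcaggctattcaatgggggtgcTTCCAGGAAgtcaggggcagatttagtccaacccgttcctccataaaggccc
Socs3: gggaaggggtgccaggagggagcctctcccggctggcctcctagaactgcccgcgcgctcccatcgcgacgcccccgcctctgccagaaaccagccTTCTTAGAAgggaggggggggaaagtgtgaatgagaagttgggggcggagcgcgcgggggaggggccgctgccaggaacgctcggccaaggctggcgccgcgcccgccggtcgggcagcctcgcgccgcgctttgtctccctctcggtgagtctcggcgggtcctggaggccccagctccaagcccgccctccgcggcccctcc
Cxcl10: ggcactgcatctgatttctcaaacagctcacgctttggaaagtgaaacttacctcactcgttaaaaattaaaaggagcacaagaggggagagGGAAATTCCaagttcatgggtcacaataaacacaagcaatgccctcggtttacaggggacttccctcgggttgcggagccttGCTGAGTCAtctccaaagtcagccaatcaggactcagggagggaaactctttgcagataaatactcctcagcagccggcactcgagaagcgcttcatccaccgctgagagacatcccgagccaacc
Nes: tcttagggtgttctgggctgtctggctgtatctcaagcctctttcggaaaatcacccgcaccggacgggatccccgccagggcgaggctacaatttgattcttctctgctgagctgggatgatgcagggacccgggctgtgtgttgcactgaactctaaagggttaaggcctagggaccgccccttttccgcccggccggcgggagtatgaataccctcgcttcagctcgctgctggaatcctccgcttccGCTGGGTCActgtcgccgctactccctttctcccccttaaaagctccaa

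Counted from the first base printed, the STAT letters lay at 249 to 257 in Gfap and at 97 to 105 in Socs3, the NF-kB letters at 93 to 101 and the NRF2 letters at 175 to 183 in Cxcl10, and the NRF2 letters at 252 to 260 in Nes. The search covered both strands. The STAT letters occurred in 8.3% of 32851 mouse promoters of this length and in 7 of the 38 promoters of members. These belong to 6 members, Steap4, Emp1, Gfap, Sphk1, Socs3 and Tgm1. The NF-kB letters occurred in 1.25% of all promoters and in 1 of the 38 of members, that of Cxcl10. The NRF2 letters occurred in 12.4% of all promoters and in 6 of the 38 of members, which belong to 5 members, Nes, Cxcl10, Emp1, Sphk1 and Aspg. A match is a description of letters and not a shown binding site.

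Libraries held 46890715 to 391701247 counted reads, with ConAstro between 74771451 and 84049525 and cKOAstro between 107847897 and 391701247. Aldh7a1 was at 207 to 220 CPM (counts scaled to library size) in ConAstro and at 45.9 to 77.2 CPM in cKOAstro. A pair of libraries went against their labels: the library labelled SFN-fed ConAstro 1 held 55.7 CPM of Aldh7a1 and 20 CPM of Esr1, and the library labelled SFN-fed cKOAstro 2 held 222 CPM of Aldh7a1 and 0.533 CPM of Esr1 (ConAstro 0.651 to 0.989 CPM of Esr1, cKOAstro 16 to 22.6 CPM). Both stay in the group of their label below. For the members, each edgeR comparison that holds these libraries is given again without them. Counts by class and role, of markers and of signalling genes keep them. cKOAstro 2 went against its sex label, with 1541 CPM of Xist, the RNA that coats the inactive X chromosome of females, against 0.706 CPM or less in the other 22 libraries. Per the labels, 6 libraries carry names that begin with Astro and 17 carry numbers. All 4 ConAstro libraries carry the number prefix 143, and the cKOAstro and SFN-fed ConAstro libraries carry other prefixes, so prefix and group cannot be told apart in those comparisons. Summed astrocyte markers were at 23360 to 36570 CPM, above summed microglia and macrophage (417 to 4167 CPM), mural (771 to 2042 CPM), ependymal (166 to 673 CPM) and neuron markers (218 to 1266 CPM). Summed oligodendrocyte markers were at 21670 to 56200 CPM and so overlapped the range of the astrocyte markers. SFN-fed cKOAstro 4 held the highest summed oligodendrocyte and the lowest summed astrocyte markers of all libraries. That library also held the lowest values of S1pr3, Osmr and Serping1 given below for SFN-fed cKOAstro. In such bulk samples fewer cells of a type and less RNA per cell cannot be told apart.

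Per kilobase of exon, the 36 genes spanned a wide range of levels. Vim, an intermediate filament protein, had the highest median over the 23 libraries with an RPKM (reads per kilobase of exon, scaled to library size) of 32.8, ahead of Gfap, the intermediate filament of astrocytes, at 27.7 RPKM, and the complement component C4b with 17.8 RPKM. Medians were over 10 RPKM for 9 genes, between 1 and 10 for 16 and under 1 for 11. The signal transducer Stat3 (12.3 RPKM), the mural and astrocyte receptor S1pr3 (11.9 RPKM) and Socs3 (11.1 RPKM) were in the upper class. Cxcl10, a chemokine that attracts T cells, was at 0.389 RPKM, and the lowest were Slc10a6, a transporter of steroid sulfates (0.127 RPKM), Sphk1, a sphingosine kinase (0.107 RPKM), and Lcn2, a secreted siderophore-binding lipocalin (0.0314 RPKM). All 36 genes passed the filter on low counts over the 4 groups. Lcn2 did not pass it in ConAstro with SFN-fed ConAstro alone.

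Members varied more between libraries of a group than most genes did. The median SD within groups was 0.402 on the log2 scale over the members and 0.225 over the 17302 genes that passed the filter. These sets were not matched for level, and 11 members had a median under 1 RPKM. The groups included the libraries against their labels and both name series. Lcn2 had the widest range over all libraries, 9.43 log2 units, followed by Fkbp5 (5.81), Sphk1 (5.55) and C3 (4.05). Stat3 had the narrowest. Its range was 0.32 log2 units and only 3.06% of genes had a smaller SD within groups.

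Lcn2 was near its detection limit in most libraries and high in a few. ConAstro held 0, 0.109, 0.307 and 0 CPM. In cKOAstro the lowest was 0.0177, the median 0.105 and the highest 9.36 CPM, in cKOAstro 4. SFN-fed ConAstro held 7.15, 0.0486, 0.0823, 0.0752 and 0.026 CPM, the high value in the library labelled SFN-fed ConAstro 1. In SFN-fed cKOAstro the lowest was 0.0427, the median 0.107 and the highest 2.43 CPM. Each of the 3 groups other than ConAstro thus held 1 library far above the rest, and the groups overlapped.

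Fkbp5, a co-chaperone of the glucocorticoid receptor that glucocorticoids induce, spread within every group. ConAstro held 25.9, 12.9, 108 and 10.4 CPM and SFN-fed ConAstro 56.3, 8.85, 9.2, 18.4 and 12.1 CPM. The lowest, median and highest values were 6.22, 19.7 and 159 CPM in cKOAstro and 4.48, 81.5 and 251 CPM in SFN-fed cKOAstro. Sphk1 held 8.58 CPM in ConAstro 3 and 0.17 to 1.73 CPM in the other 22 libraries. C3, the central complement component, held 3.02, 2.94, 9 and 2.82 CPM in ConAstro and 3.74, 5.95, 5.59, 1.95 and 2.41 CPM in SFN-fed ConAstro, with a highest value of 15.7 CPM in cKOAstro and 32.6 CPM in SFN-fed cKOAstro. ConAstro 3, the high library for Sphk1, also held the highest summed ependymal markers of all libraries, 673 CPM.

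**Figure D1:**
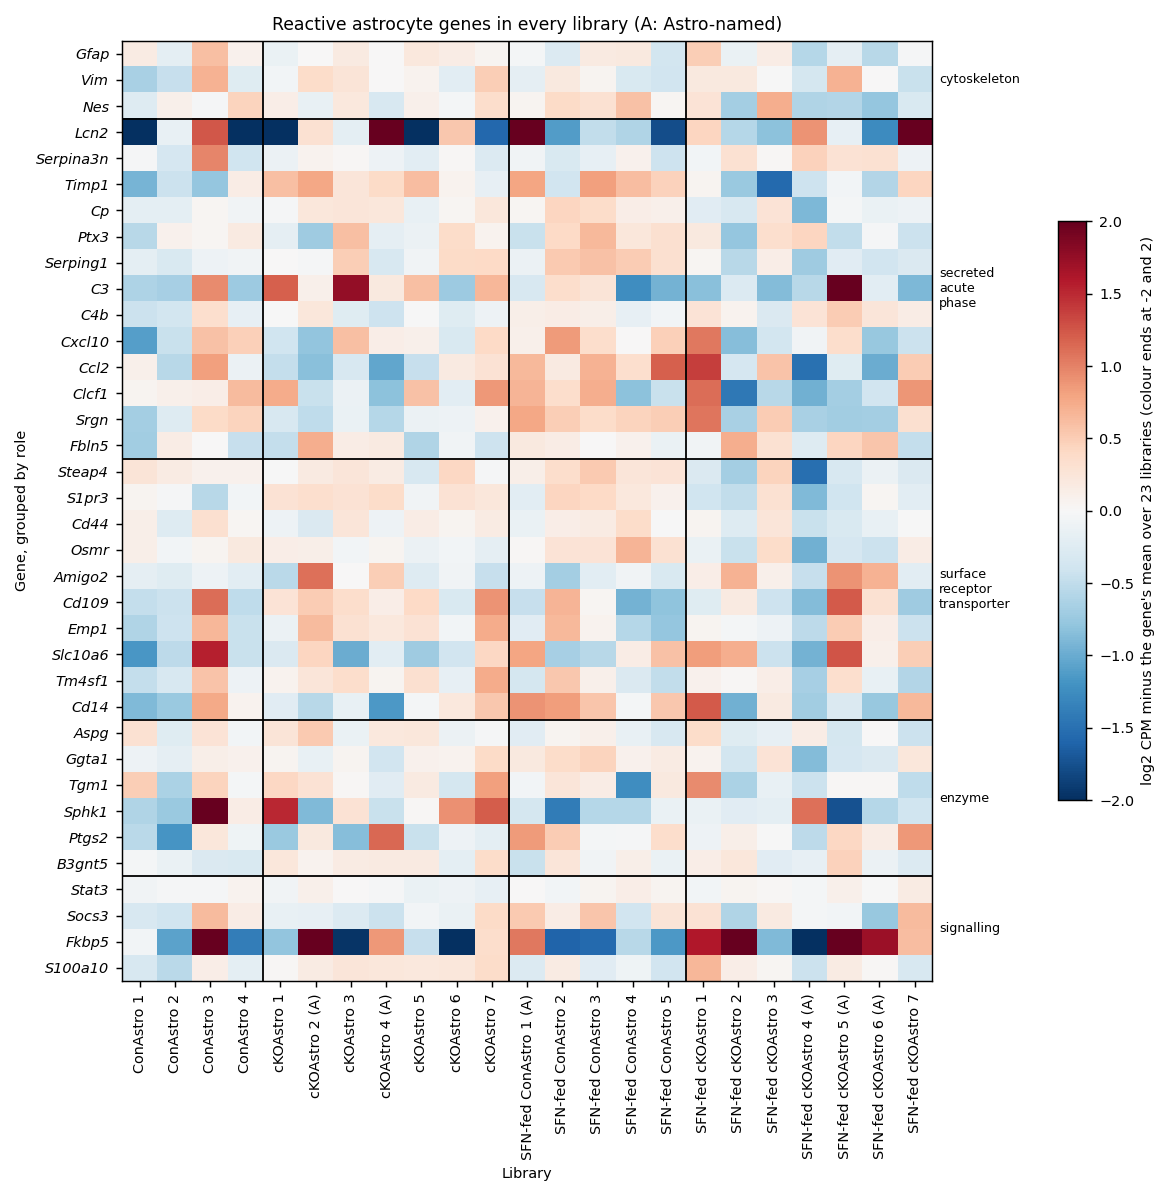
Level of the 36 reactive astrocyte genes (rows, grouped by role) in each of 23 libraries (columns, in group order; A marks Astro-named libraries), as log2 CPM less the gene's mean over all libraries, with the colour scale from -2 to 2. Colours differ within groups, most for Lcn2, Fkbp5, Sphk1 and C3, and the row of Stat3 is almost uniform.

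The first comparison set the genotypes against each other on the control diet. Slc1a3, the gene that carries the CreER allele, was at 4524 ± 463 CPM in ConAstro (SD, n = 4) and 2248 ± 386 CPM in cKOAstro (SD, n = 7). Deletion of Aldh7a1 and the Slc1a3-CreER allele cannot be told apart in comparisons of genotype. None of the 36 members passed the test between cKOAstro and ConAstro. Gfap was at 129, 101, 176 and 124 CPM in ConAstro and had a lowest, median and highest value of 106, 120 and 133 CPM in cKOAstro, so the cKOAstro values lay within those of the controls. The log2 fold change was -0.13 (SE 0.126) with an adjusted p of 0.981 in edgeR. Vim was at 149 ± 69.7 CPM (SD, n = 4) in ConAstro and 173 ± 30.2 CPM (SD, n = 7) in cKOAstro. Stat3 was at 117 ± 4.94 CPM and 114 ± 7.38 CPM, and C4b at 93.4 ± 24.2 CPM and 94.9 ± 13.9 CPM. Nes, the filament protein of neural progenitors, was at 52.8 ± 11 CPM and 51.6 ± 8.04 CPM. Serpina3n, a secreted serine protease inhibitor, was at 13 ± 6.59 CPM and 10.9 ± 0.961 CPM, with 22.7 CPM in ConAstro 3 alone. Cxcl10 was at 0.841 ± 0.42 CPM and 0.837 ± 0.273 CPM, and Socs3 at 34.9 ± 12.1 CPM and 31 ± 5.9 CPM.

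Smaller differences in this comparison lay in 5 members, all higher in cKOAstro at an unadjusted p under 0.05, which is 13.9% of the 36 against 3.74% of 17406 genes. They were S100a10, S1pr3, Timp1, Cp and B3gnt5. S100a10, which forms a membrane complex with an annexin, held 10.4, 8.96, 14.2 and 11.3 CPM in ConAstro, and 13.2, 15.1 and 16.7 CPM as the lowest, median and highest in cKOAstro. The groups overlapped through ConAstro 3 only. The log2 fold change was 0.41 (SE 0.116, edgeR adjusted p = 0.981). S1pr3, a receptor for sphingosine 1-phosphate, held 53.2, 50.1, 34.9 and 48.8 CPM in ConAstro and 48.4, 62.5 and 65.4 CPM as the lowest, median and highest in cKOAstro, a log2 fold change of 0.37 (SE 0.108). Timp1, an inhibitor of matrix metalloproteinases, held 0.121, 0.176, 0.136 and 0.268 CPM against 0.215, 0.318 and 0.421 CPM, a log2 fold change of 0.87 (SE 0.291). Over the members the median log2 fold change was 0.058, with 21 above 0, and it was -0.00716 over all genes. At the adjusted threshold 0.023% of genes, 4 in all, passed in edgeR and 8 passed in DESeq2, none of them members. Summed mural markers were at 1042 to 1560 CPM in ConAstro and 1258 to 1789 CPM in cKOAstro, and ependymal markers at 239 to 673 and 252 to 627 CPM. In cKOAstro 5 of 10 endothelial and 3 of 17 stress markers were lower and 2 of 8 mural markers were higher at an unadjusted p under 0.05. Their part in these differences was not tested. Without cKOAstro 2, 0 members passed in edgeR.

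On the SFN diet the number of members that passed between genotypes depended on the tool and on the libraries against their labels. With edgeR, 0 of 36 members and 0% of 16672 genes passed the adjusted threshold. With DESeq2, 1 member and 2.2% of genes passed, and with limma-voom with library quality weights 16 members (3 higher, 13 lower), or 44.4%, against 26.4% of genes. Without the libraries against their labels limma-voom called 0 members and 0.018% of genes, and edgeR 0 members. At an unadjusted p under 0.05 in edgeR, 10 members (27.8%) differed, against 20.3% of genes, and without those libraries 8 members (4 higher, 4 lower), against 14.9% of genes. The share of members was near that of all genes. Of the 10, those lower in SFN-fed cKOAstro were Serping1, Osmr, Cp, S1pr3, Steap4, Timp1 and Ggta1, and those higher were Serpina3n, Amigo2 and Fkbp5. By class, 5 of the 12 pan-reactive genes were lower and 1 was higher, 2 of the 7 lipopolysaccharide genes were lower and 2 were higher, and none of the 12 ischemia genes had such a p.

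Serping1, the inhibitor of the first complement protease, held 6.32, 9.87, 10.3, 9.72 and 8.55 CPM in SFN-fed ConAstro. In SFN-fed cKOAstro the lowest was 4.19, the median 5.6 and the highest 7.54 CPM. The groups overlapped only through the library labelled SFN-fed ConAstro 1, which held the lowest of its group. The log2 fold change was -0.65 (SE 0.162), with an adjusted p of 0.195 in edgeR and 0.0272 in DESeq2. Without the libraries against their labels it was -0.70 (SE 0.156, edgeR adjusted p = 0.31), and among numbered libraries without them -0.53 (SE 0.14, edgeR adjusted p = 0.576).

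Osmr, the receptor subunit for oncostatin M, held 17, 20.3, 20.2, 26.8 and 20.7 CPM in SFN-fed ConAstro and 8.55, 13.3 and 21.5 CPM as the lowest, median and highest in SFN-fed cKOAstro. Its log2 fold change was -0.53 (SE 0.194, edgeR adjusted p = 0.198), -0.56 (SE 0.218) without the libraries against their labels and -0.27 (SE 0.151) among numbered libraries without them. Serpina3n ran the other way, with 11, 9.34, 10.3, 12.2 and 8.67 CPM in SFN-fed ConAstro and 10.7, 14.1 and 15.9 CPM in SFN-fed cKOAstro, a log2 fold change of 0.35 (SE 0.125, edgeR adjusted p = 0.195). That of Serpina3n was 0.36 (SE 0.149) without the libraries against their labels, 0.22 (SE 0.14) among numbered libraries and 0.13 (SE 0.134) among numbered libraries without those against their labels. None of the core markers passed in edgeR: the log2 fold change was -0.03 (SE 0.175) for Gfap, 0.19 (SE 0.173) for Vim, -0.01 (SE 0.0592) for Stat3 and 0.15 (SE 0.111) for C4b. The sign for Gfap turned to 0.17 (SE 0.169) among numbered libraries. Among numbered libraries, 5 members had an unadjusted p under 0.05, and 2 without the libraries against their labels, with 0 past the adjusted threshold in both. The share of all genes with an unadjusted p under 0.05 was not computed for these fits, so the counts cannot be set beside it. Summed mural markers were at 1295 to 2042 CPM in SFN-fed ConAstro and 771 to 1780 CPM in SFN-fed cKOAstro, with 4 of 8 mural, 6 of 8 fibroblast and 6 of 10 endothelial markers lower in the latter at an unadjusted p under 0.05. Their part in the result was not tested.

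In the diet comparisons 0 members passed the adjusted threshold. At an unadjusted p under 0.05, Serping1, Cp and Timp1 were higher on SFN in ConAstro mice and lower in cKOAstro mice. In ConAstro mice, 0 of the 35 members tested and 0% of 16509 genes passed in edgeR, and 0 members passed in DESeq2. At an unadjusted p under 0.05, 5 members (14.3%) differed, against 6.54% of genes. Serping1, Cp, Timp1 and Ggta1 were higher on SFN and Sphk1 was lower. Serping1 held 5.97, 5.52, 6.41 and 6.57 CPM in ConAstro, with 4 of the 5 SFN-fed values above all of them, a log2 fold change of 0.54 (SE 0.147, edgeR adjusted p = 0.762). Cp, the ferroxidase ceruloplasmin, held 43.3, 42.9, 50.5 and 46.8 CPM in ConAstro and 50.9, 66.5, 64, 54.3 and 53 CPM in SFN-fed ConAstro. The groups of Cp did not overlap, with 50.5 CPM as the highest in ConAstro and 50.9 CPM as the lowest in SFN-fed ConAstro. The share of all genes without overlap in this comparison was not computed. The log2 fold change of Cp was 0.32 (SE 0.0948, edgeR adjusted p = 0.762). The value for Sphk1, -2.66 (SE 0.943), turned to -0.22 without ConAstro 3. Without the library labelled SFN-fed ConAstro 1, 8 members had an unadjusted p under 0.05 (6 higher, 2 lower), against 8.41% of genes, 0 passed in edgeR, and the log2 fold change was 0.64 for Serping1 (SE 0.0982) and 0.37 for Cp (SE 0.0879). In this comparison 3 of 8 mural, 6 of 8 fibroblast and 5 of 10 endothelial markers were higher on SFN at an unadjusted p under 0.05, and their part was not tested.

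In cKOAstro mice the SFN diet went with lower values of several of the same genes. Of 36 members, 0 passed in edgeR or DESeq2, as did 0% of 16903 genes in edgeR. At an unadjusted p under 0.05, 7 members (19.4%) differed, against 10.9% of genes: S1pr3, Serping1, Timp1, Cp and Tm4sf1 lower, Serpina3n and C4b higher. S1pr3 had a lowest, median and highest value of 27.7, 38.6 and 62.7 CPM in SFN-fed cKOAstro, against 48.4, 62.5 and 65.4 CPM in cKOAstro. Its log2 fold change was -0.50 (SE 0.141, edgeR adjusted p = 0.459). The log2 fold change of Serping1 was -0.41 (SE 0.152), and Serpina3n was 0.27 higher (SE 0.103). C4b was at 94.9 ± 13.9 CPM in cKOAstro and 116 ± 18.5 CPM in SFN-fed cKOAstro. Without the library labelled SFN-fed cKOAstro 2, 5 members had such a p (2 higher, 3 lower), against 6.94% of genes, 0 passed in edgeR, and the log2 fold change of S1pr3 was -0.46 (SE 0.148). Here 4 of 8 mural and 5 of 8 ependymal markers were lower and 3 of 17 stress markers higher on SFN, and their part was not tested. The comparisons of diet and genotype share groups of libraries, so their values are not independent of each other.

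Between SFN-fed cKOAstro and ConAstro, 0 members and 0% of 16753 genes passed in edgeR, and 0 members passed in DESeq2. A single member, Sphk1, had an unadjusted p under 0.05 (2.78%, against 8.67% of genes), with a log2 fold change of -2.17 (SE 0.818) that became 0.24 without ConAstro 3. It was -2.16 (SE 0.901) without the library labelled SFN-fed cKOAstro 2, when 0 members passed. The median log2 fold change of the members was -0.0177. Amigo2, a cell adhesion protein, and C4b had the next lowest p. Amigo2 held 16, 15.3, 17 and 15.7 CPM in ConAstro and 13.2, 19.9 and 33.9 CPM as the lowest, median and highest in SFN-fed cKOAstro. C4b held 75.8, 79.1, 128 and 90.3 CPM in ConAstro and 83.6, 121 and 144 CPM in SFN-fed cKOAstro.

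Several other members had no unadjusted p under 0.05 in any comparison of genotype, diet or both over all libraries. Their levels are given as the lowest, median and highest over the 23 libraries. Cd44, the receptor for hyaluronan, was at 7.18, 10.1 and 12.6 CPM, Aspg, an asparaginase, at 3.22, 4.25 and 6.25 CPM, and Fbln5, a protein of elastic fibres, at 4.43, 7.26 and 11.9 CPM. Ptx3, a soluble pattern-recognition protein, was at 0.896, 1.63 and 2.42 CPM, and Ptgs2, the inducible prostaglandin synthase, at 1.18, 2.64 and 5.97 CPM. Tgm1 was at 0.263, 0.653 and 1.24 CPM and Slc10a6 at 0.134, 0.271 and 0.955 CPM. B3gnt5, a glycosyltransferase of glycosphingolipids that differed at an unadjusted p on the control diet as given above, was at 1.49, 1.99 and 2.82 CPM, with a log2 fold change of 0.34 (SE 0.132) between cKOAstro and ConAstro.

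**Figure D2:**
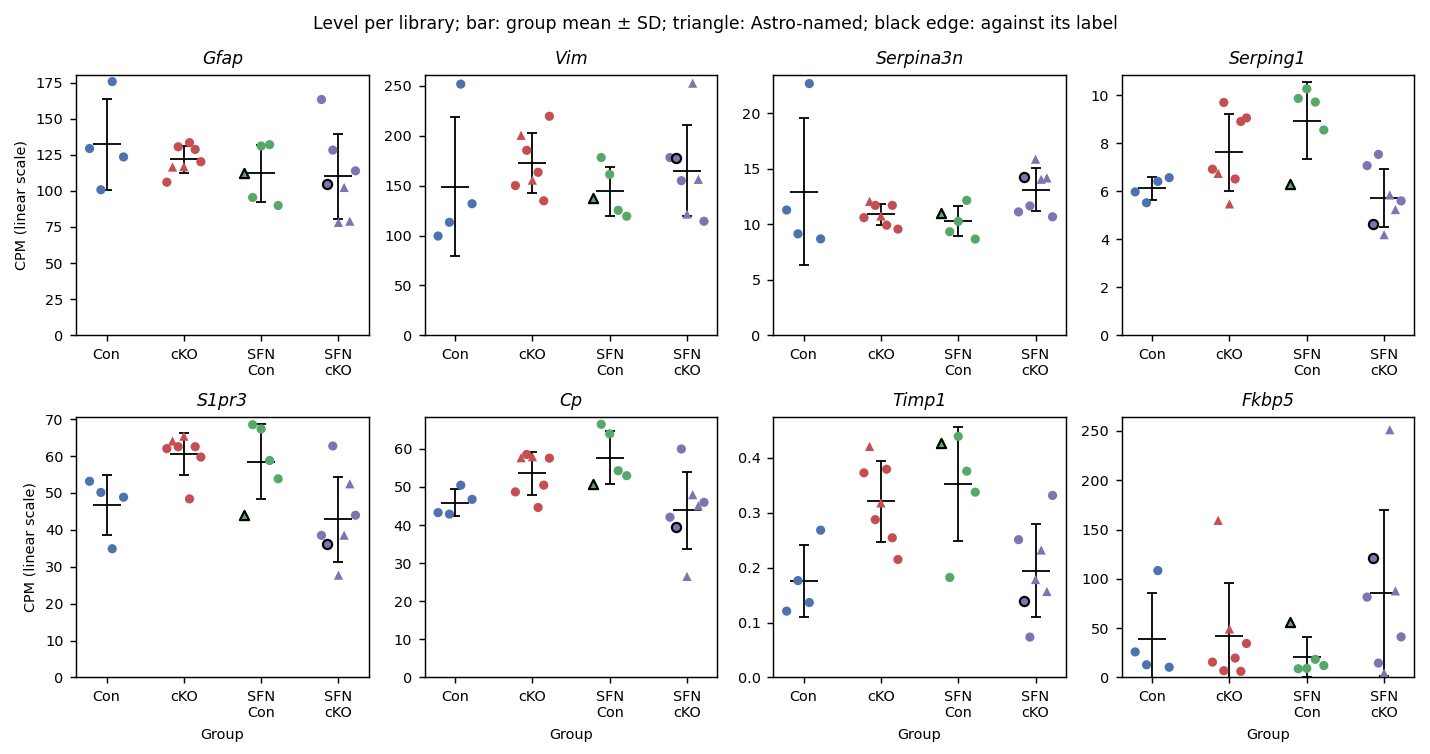
CPM (linear scale) of single reactive astrocyte genes in each library by group, with the bar at the group mean ± SD. Triangles are Astro-named libraries and black edges mark the libraries against their labels. Means of Serping1 and S1pr3 are higher in SFN-fed ConAstro and cKOAstro than in ConAstro and SFN-fed cKOAstro, with overlap of libraries, and Gfap overlaps in all 4 groups.

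The test of whether the diet difference depends on genotype was made for each gene on all 4 groups. In edgeR 0 members and 0% of 17302 genes passed the adjusted threshold, and 0 members passed in DESeq2. At an unadjusted p under 0.05, 6 members (16.7%) had an interaction, against 7.32% of genes. For Serping1, Timp1, S1pr3, Cp and Lcn2 the diet difference was lower in cKOAstro than in ConAstro mice, and for Serpina3n it was higher. The direction of Lcn2 turned among numbered libraries, as given below. By class these were 5 of 12 pan-reactive genes (4 lower with Lcn2 among them, 1 higher), 1 of 7 lipopolysaccharide genes and 0 of 12 ischemia genes. By role, 5 of 13 secreted proteins and 1 of 10 surface proteins had such a p, and none of the cytoskeletal, enzyme and signalling members did. Serping1 had the lowest p, with an interaction of -0.96 on the log2 scale (SE 0.234, edgeR adjusted p = 0.673). On the control diet its mean was 6.12 ± 0.471 CPM in ConAstro (SD, n = 4) and 7.62 ± 1.59 CPM in cKOAstro (SD, n = 7). On SFN it was 8.95 ± 1.6 CPM in the control genotype (SD, n = 5) and 5.73 ± 1.21 CPM in the cKO genotype (SD, n = 7). The cKO genotype and SFN each went with a higher mean than ConAstro, and the cKO genotype with SFN with the lowest mean. Timp1 (-1.73, SE 0.457) and S1pr3 (-0.82, SE 0.228) likewise had a higher mean with SFN in ConAstro mice and a lower mean with SFN in cKOAstro mice. Without the libraries against their labels, 5 members had such a p (4 lower, 1 higher, Lcn2 not among them), against 8.32% of genes, and the interaction was -1.01 for Serping1 (SE 0.219), -1.59 for Timp1 (SE 0.481) and -0.87 for S1pr3 (SE 0.222). Among numbered libraries 8 members had such a p (3 higher, 5 lower), against 10.2% of genes, and 0 passed in edgeR. The 3 higher were Fkbp5 (3.65, SE 1.04), Amigo2 (0.57, SE 0.234) and Lcn2, and Ptx3 (-0.75) was among the lower. There the interaction was -1.08 for Serping1 (SE 0.213), -1.57 for Timp1 (SE 0.57) and -0.81 for S1pr3 (SE 0.219), with edgeR adjusted p of 0.439 to 0.465. That of Lcn2 was -5.41 (SE 2.6) over all libraries, -0.68 (SE 2.51) without the libraries against their labels and 4.0 (SE 1.75) among numbered libraries, which leave out the high libraries cKOAstro 4 and SFN-fed ConAstro 1 and keep SFN-fed cKOAstro 7. For Gfap, Vim and Stat3 the interaction was 0.09 (SE 0.231), -0.02 (SE 0.303) and 0.03 (SE 0.0754). Over all libraries, 4 of 8 mural and 4 of 8 fibroblast markers had a lower interaction at an unadjusted p under 0.05. A higher interaction at such a p was seen for 3 of 17 stress and 1 of 8 blood markers. The part of these markers in the result was not tested.

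**Figure D3:**
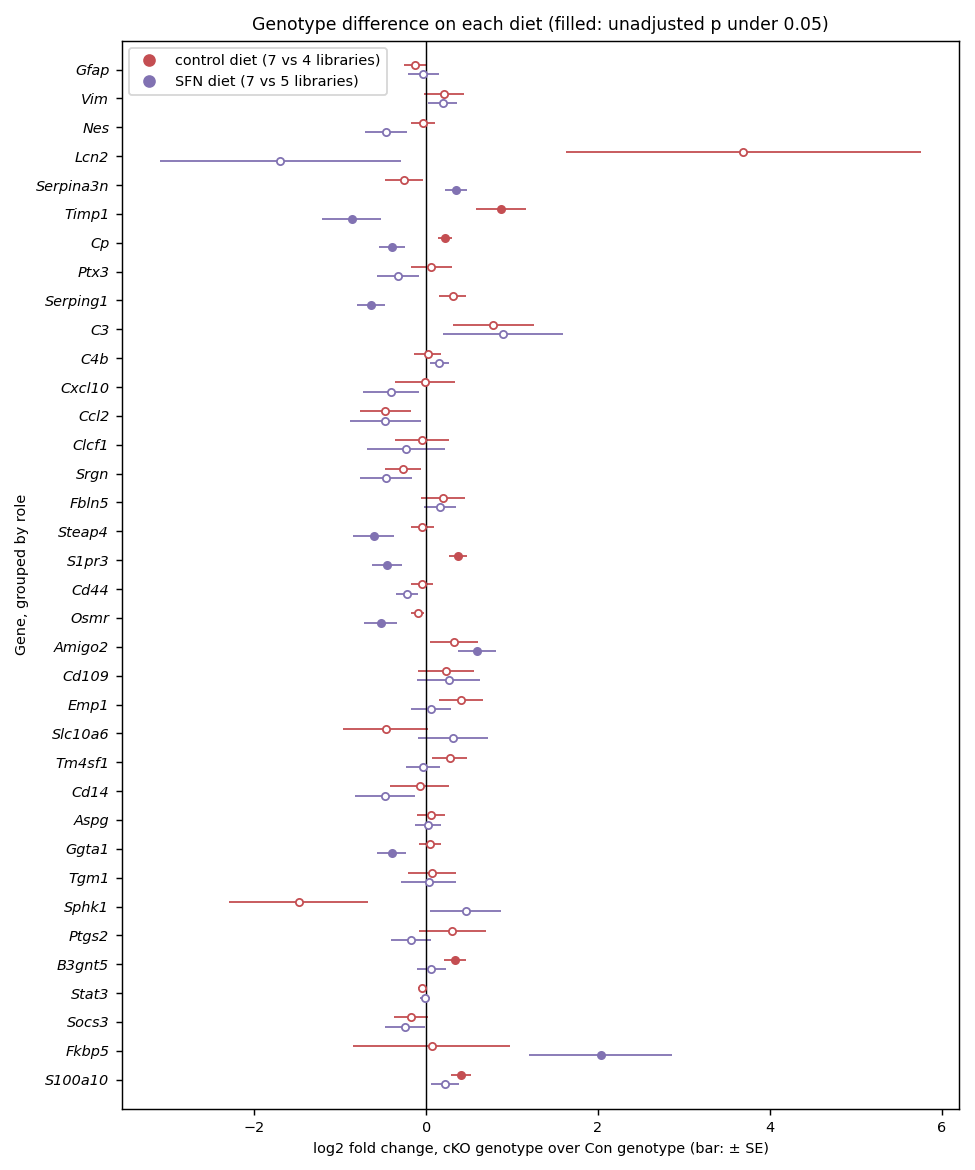
Log2 fold change of cKO over Con genotype on each diet for the 36 genes (rows, grouped by role), with bars of ± SE and filled points at an unadjusted p under 0.05. For S1pr3, Timp1 and Cp a filled point lies above 0 on the control diet and another below 0 on SFN.

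Levels of the members were then set beside summed levels of marker genes of other cell types and of a list of stress genes that tissue dissociation induces, over the 17 numbered libraries. No marker list shares a gene with the members. The family of 360 relations (36 genes, 10 lists) was added after the data were seen, and 29 had a Benjamini-Hochberg adjusted permutation p under 0.05, 24 positive and 5 negative. There were 24 such relations without the library labelled SFN-fed cKOAstro 2 and 32 when each group's mean was taken off. In the sentences below, r and rho are over 17 libraries. For part of the relations r is given again without the 2 libraries farthest from the median of the list. The smallest p that 100000 permutations can give is 1e-05, or 0.0006 after adjustment.

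Several members varied with ependymal markers. Cd109, a membrane-anchored protease-binding protein, had an r of 0.982 and a rho of 0.949 (permutation adjusted p = 0.0006 and 0.0009), and r was 0.968 without 2 libraries. The membrane proteins Emp1 (r = 0.888, rho = 0.848) and Tm4sf1 (r = 0.886, rho = 0.853), C3 (r = 0.844, rho = 0.88) and Vim (r = 0.817, rho = 0.743) followed, and without 2 libraries r was 0.817, 0.823, 0.852 and 0.673. These 5 genes have roles in membranes, complement and the cytoskeleton, and ConAstro 3 held the highest value among the ConAstro libraries for each of them. Cd109 held 36.3 CPM there, against 11.7 to 12.4 CPM in the other ConAstro libraries.

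Mural markers varied with 5 members, 4 of them positively. For S1pr3 r was 0.931 and rho 0.912 (permutation adjusted p = 0.0006 and 0.0009), for the metalloreductase Steap4 0.791 and 0.811, for Serping1 0.756 and 0.816, and for Cp 0.745 and 0.836. Without 2 libraries r was 0.867, 0.84, 0.699 and 0.832. Fkbp5 ran against mural markers, with r = -0.821 and rho = -0.765, and r = -0.637 without 2 libraries. S1pr3 also varied with fibroblast markers (r = 0.814, rho = 0.789), and Fkbp5 against them (r = -0.801, rho = -0.711).

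Markers of microglia and macrophages varied with Clcf1, a cytokine of the interleukin-6 family (r = 0.926, rho = 0.929, permutation adjusted p = 0.0006 and 0.0009, r = 0.89 without 2 libraries), and with Socs3 (r = 0.766, rho = 0.752, and 0.653 without 2 libraries). Cd14 varied with them too (r = 0.706, rho = 0.645), as given again in the smaller family below. The stress list varied with Cd14, the co-receptor for lipopolysaccharide (r = 0.884, rho = 0.868), the granule proteoglycan Srgn (r = 0.865, rho = 0.843), Socs3 (r = 0.811, rho = 0.77), the chemokines Ccl2 (r = 0.752, rho = 0.809) and Cxcl10 (r = 0.746, rho = 0.65) and the glycosyltransferase Ggta1 (r = 0.738, rho = 0.696). Without 2 libraries the r of Cxcl10 was 0.57 and that of Ggta1 0.523. The other relations under the threshold were Steap4 with fibroblast markers, Osmr and Srgn with endothelial markers, and Clcf1 and Socs3 with blood markers, all positive, and Fbln5 with microglia, Tgm1 with astrocyte and Ggta1 with oligodendrocyte markers, all negative. Without 2 libraries r was -0.391 for Fbln5, -0.597 for Tgm1 and -0.316 for Ggta1 in these negative relations. Without the library labelled SFN-fed cKOAstro 2, 0 negative relations with microglia, astrocyte or oligodendrocyte markers were under the threshold. Positive relations with microglia markers were then 2, against 3 over the 17 libraries. The relations of this family describe libraries that vary together, and what they rest on was not tested.

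**Figure D4:**
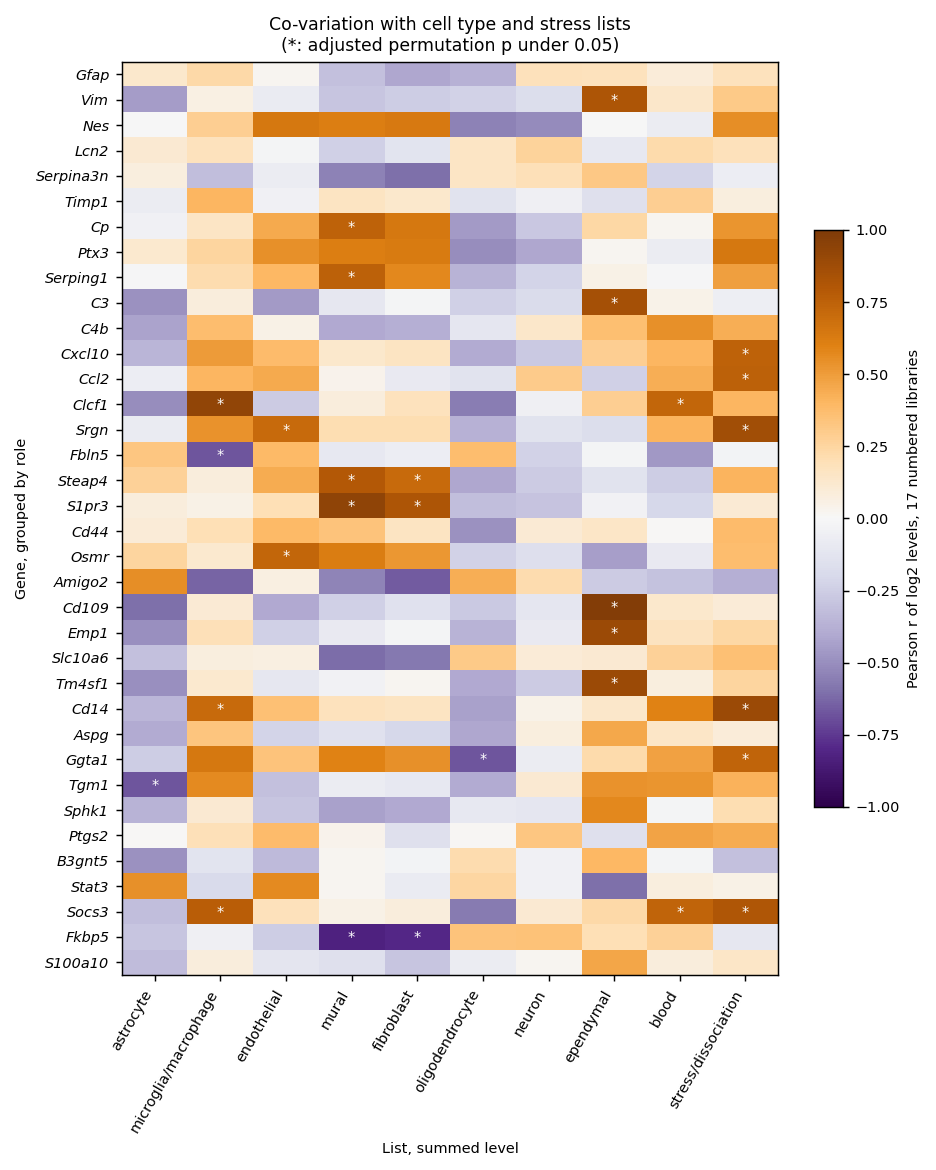
Pearson r of the log2 CPM of each of the 36 genes (rows) with the summed level of 10 gene lists (columns) over 17 numbered libraries, with stars at an adjusted permutation p under 0.05. The strongest positive cells are Cd109 with ependymal, S1pr3 with mural and Clcf1 with microglia and macrophage markers.

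**Figure D5:**
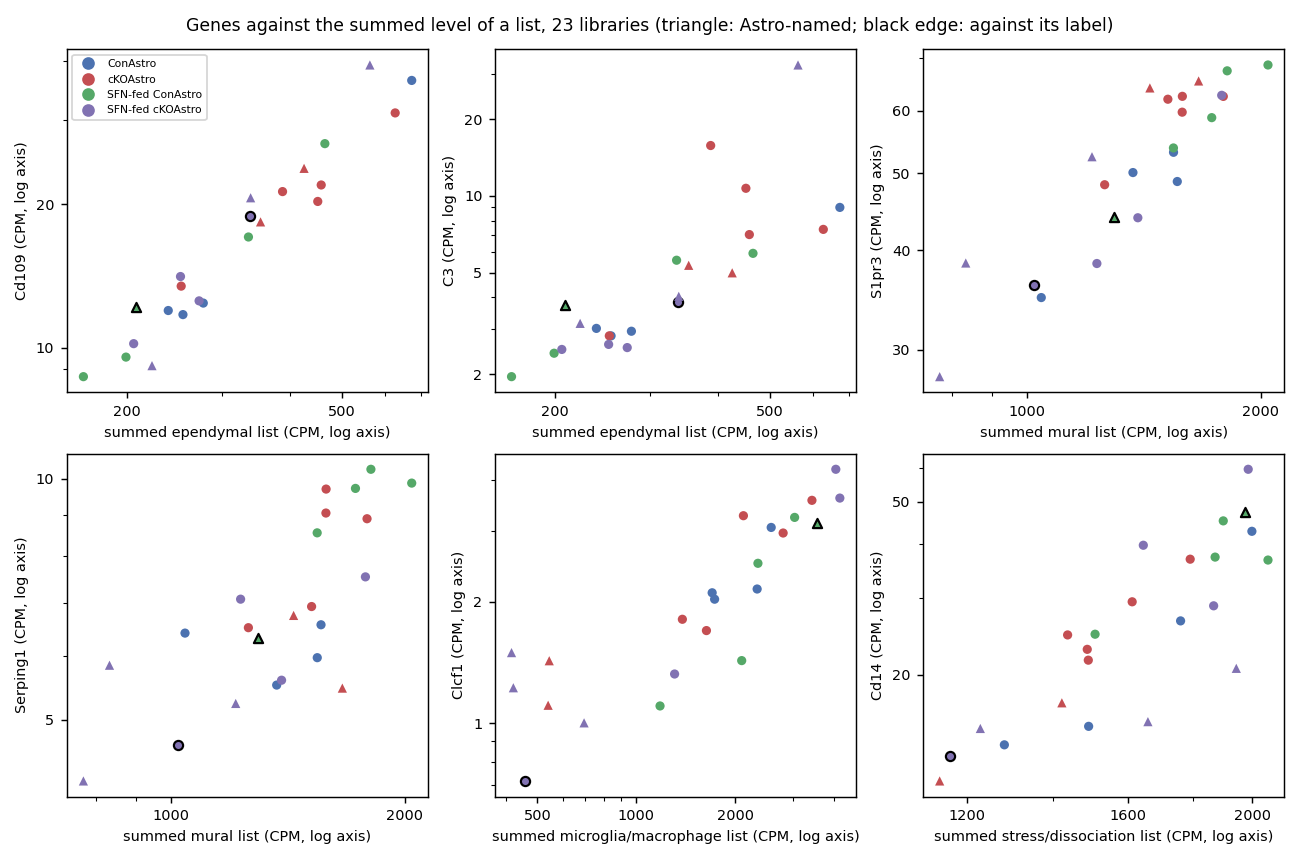
CPM of single members against the summed CPM of a marker or stress list (both axes logarithmic) in 23 libraries, coloured by group, with triangles for Astro-named libraries and black edges for libraries against their labels. Points of several groups lie along each trend.

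A second family of 10 relations was set among core members and with microglia markers. Gfap and Serpina3n had r = 0.614 and rho = 0.532 over 17 libraries (permutation adjusted p = 0.0447 and 0.0979). Without the 2 libraries farthest in Gfap r was 0.208. Without the library labelled SFN-fed cKOAstro 2 it was 0.726, with rho = 0.674 (permutation adjusted p = 0.0057 and 0.0286), and 0.515 when 2 more were left out. The relation over all 17 libraries no longer held without the 2 farthest. With group means taken off r was 0.578, and 0.458 without 2. Cd14 and microglia markers had r = 0.706 and rho = 0.645 (permutation adjusted p = 0.0125 and 0.0645), and r = 0.584 without 2 libraries. Osmr and Stat3 had r = 0.499 and rho = 0.591 (permutation adjusted p = 0.0993 and 0.0707), and r = 0.699 without the library labelled SFN-fed cKOAstro 2 (permutation adjusted p = 0.0124). With group means taken off the r of Osmr and Stat3 was 0.392 (permutation adjusted p = 0.188). Gfap and Vim (r = 0.419, rho = 0.355) and Stat3 and Socs3 (r = 0.106, rho = 0.113) had adjusted p of 0.186 and 0.762 in the permutation test of r. Srgn with microglia markers had r = 0.533 (permutation adjusted p = 0.0893), and 0.677 less the group mean (permutation adjusted p = 0.0213). Without the library labelled SFN-fed cKOAstro 2 the r of Srgn was 0.349 (permutation adjusted p = 0.333). C3 with microglia markers had r = 0.0798.

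Among the 14 libraries labelled with the cKO genotype, the 5 Astro-named libraries were compared with the 9 numbered ones, with diet as a covariate. Members passed here and in no comparison of genotype or diet by edgeR: 4 of 36 were lower in Astro-named libraries, against 5.96% of 17662 genes in either direction. They were Ccl2 (log2 fold change -1.17, edgeR adjusted p = 0.0302), Ggta1 (-0.48, 0.038), Srgn (-0.79, 0.0459) and Cd14 (-0.99, 0.0482). Ccl2, a chemokine for monocytes, had a lowest, median and highest level of 3.05, 4.83 and 11.1 CPM in numbered libraries and 1.5, 2.12 and 3.6 CPM in Astro-named ones. Cd14 held 13, 28.8 and 59.4 CPM against 11.4, 15.6 and 20.7 CPM, and Srgn 6.93, 10.2 and 22.9 CPM against 6.77, 6.99 and 7.66 CPM. The series overlapped for each of these 3 genes. At an unadjusted p under 0.05, 12 members (33.3%) differed, 3 higher and 9 lower, against 22.2% of genes. DESeq2 called 8 members and 11.8% of genes. Without the library labelled SFN-fed cKOAstro 2, edgeR called 8 members, 1 higher and 7 lower, against 12.3% of genes. The count was 0 without cKOAstro 2 (the Astro-named library high in Xist), 4 or 7, or without SFN-fed cKOAstro 3, 5, 6 or 7, where the adjusted p of Ccl2 was 0.0513 to 0.0825 in edgeR, and it was 1 without cKOAstro 3, 5 or 6 or SFN-fed cKOAstro 1. Of all genes, 0 to 707 passed in the fits with 0 members and 577 to 695 in those with 1 member. In the edgeR fit over all 14 libraries, 14 of 14 microglia and macrophage markers passed, all lower in Astro-named libraries, with a median log2 fold change of -2.3. Also lower were 4 of 8 fibroblast, 1 of 8 blood and 1 of 17 stress markers, and 1 of 8 oligodendrocyte and 1 of 10 neuron markers passed as higher. Summed microglia and macrophage markers were at 417 to 694 CPM in these Astro-named libraries and at 457 to 4167 CPM in the numbered ones. The library labelled SFN-fed cKOAstro 2 held 457 CPM, and the other numbered libraries of all groups 1181 CPM or more. Whether these markers have a part in the difference was not tested.

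Genes that carry the signals to the members were described by a list of 42 cytokines, receptors, kinases and NF-kB components outside the set. None passed in a comparison of genotype or diet in edgeR. At an unadjusted p under 0.05, 1 was higher and 3 were lower in cKOAstro than in ConAstro, against 3.74% of all genes. Between genotypes on SFN 2 were higher and 4 lower, against 20.3% of all genes. In ConAstro mice SFN went with 6 higher and 1 lower (6.54% of all genes), and in cKOAstro mice with 0 higher and 1 lower (10.9%). Between SFN-fed cKOAstro and ConAstro 0 were higher and 2 were lower (8.67%), and 1 higher and 2 lower interactions had such a p (7.32%).

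Chuk, a kinase subunit that activates NF-kB, held 49.8, 56.7, 51 and 59 CPM in ConAstro and 47.5, 48.8, 45.7, 43.8 and 47.7 CPM in SFN-fed ConAstro. The groups did not overlap, and the share of all genes without overlap was not computed. The log2 fold change of Chuk was -0.22 (SE 0.0595, edgeR adjusted p = 0.762). Socs1, another inhibitor of cytokine signals, was 0.48 higher on the log2 scale in cKOAstro than in ConAstro (SE 0.173, edgeR adjusted p = 0.981), with an interaction of -0.77 (SE 0.272). Il6st, the gp130 subunit, differed by -0.32 between genotypes on SFN (SE 0.127, edgeR adjusted p = 0.207) and had an interaction of -0.33 (SE 0.15). In Astro-named against numbered libraries 5 of the 42 passed in edgeR, against 5.96% of all genes. Tgfb1 (-1.39), Tgfbr1 (-1.46), Tgfbr2 (-0.78) and Tlr4 (-1.07) were lower and Ptpn11 (0.57) was higher, with edgeR adjusted p of 0.0214 to 0.038. The last 2 of these were named after their values were seen. Without cKOAstro 2 or 4, or without SFN-fed cKOAstro 5 or 6, 0 of all genes passed in edgeR.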

How the data were processed

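Poly(A) RNA of ACSA-2 sorted cortical astrocytes was sequenced on a NovaSeq. The authors aligned reads to mm10 with STAR after FastQC and deposited raw counts of reads per gene symbol for each library. Tool versions, annotation and use of strand are not given in the sources used here, so overlapping genes are uncertain. Libraries were grouped by label, with n the number of mice, and no library matched another within counting noise (lowest chi-square per degree of freedom 41.9 over 58 within-group comparisons).

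Genes were filtered with filterByExpr (minimum count 10, total 15), normalised by TMM and tested with the two-sided quasi-likelihood test of edgeR 4.0.16 (R 4.3.3) on the groups compared, with Benjamini-Hochberg adjustment over all genes tested at 0.05. DESeq2 1.42.0 and limma 3.58.1 (voom) were alternatives, beside no filter, the name series and leaving out libraries. SE is the log2 fold change over the square root of F. CPM are TMM-normalised, and log2 CPM has a prior count of 2. RPKM used exon lengths of GENCODE for GRCm38. Correlations used 100000 two-sided permutations (scipy 1.17.1). The tests were checked on simulated counts. The members and lists were chosen with earlier results of these data known. Members given in full were the core markers Gfap, Vim, Nes, Serpina3n, Lcn2, C3, C4b, Stat3, Socs3, Cxcl10 and S100a10, up to 3 with the lowest p in a comparison, those past 0.05, the 4 with the widest range and the 3 highest per length. Of the signalling list up to 3 per comparison were eligible.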

Additional observations from a re-analysis of the deposited data

Results flagged for a closer look

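In 144 combinations of a member and a group of 4 to 7 libraries, the highest or lowest library was tested for its distance from the rest by Dixon's ratio. It stood apart in 11 combinations of 7 genes, where chance gives about 1 in 20. Lcn2 stood apart in 3 groups, with 9.359 CPM in cKOAstro 4 (the others 0.01775 to 0.1833 CPM), 7.152 CPM in SFN-fed ConAstro 1 (a library against its label) and 2.427 CPM in SFN-fed cKOAstro 7. ConAstro 3 stood apart for 3 genes, with 36.34 CPM of Cd109, 14.42 CPM of Emp1 and 9.005 CPM of C3, and it held the highest summed ependymal markers, 673.2 CPM. C3 also stood apart in SFN-fed cKOAstro 5, at 32.57 CPM. S1pr3 was at 48.39 CPM in cKOAstro 5, below the 59.73 to 65.4 CPM of the other cKOAstro libraries. Clcf1 was at 3.054 CPM in ConAstro 4. Tgm1, a transglutaminase, was at 0.263 CPM in SFN-fed ConAstro 4 and at 1.244 CPM in SFN-fed cKOAstro 1. What sets these libraries apart was not tested.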

How the results depend on the processing

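Of 1015 values computed under alternatives, 915 kept their direction and side of the threshold or moved by less than the spread, 46 no longer passed and 11 newly passed the threshold, 23 moved further and 20 changed sign. Members called between genotypes on SFN were 0 in edgeR, 1 in DESeq2 and 16 in limma-voom (0 without the libraries against their labels), and 0 to 1 when 1 library was left out (1 without SFN-fed cKOAstro 3, where 701 of all genes passed). Members called between name series were 4, and 8 in DESeq2, 9 in limma-voom, 8 without the library against its label and 0 to 8 with 1 library left out (0 without cKOAstro 2, 8 without SFN-fed cKOAstro 2). Of all genes, 2082 passed there in DESeq2, 2887 in limma-voom, 2167 without SFN-fed cKOAstro 2 and 0 without cKOAstro 2. The median for the diet in cKOAstro was -0.135, and 0.0478 among numbered libraries without those against their labels. The median interaction was -0.189, -0.453 in limma-voom and -0.42 (without ConAstro 3) to -0.112 with 1 library left out.

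Signs turned for small log2 fold changes. Gfap between genotypes on the control diet (-0.127) was 0.0318 in limma-voom and -0.233 to 0.0405 with 1 library left out, and C4b (0.0163) -0.0681 to 0.211. On SFN Gfap (-0.031) was 0.17 among numbered libraries, 0.0231 with the name series as a covariate, 0.253 among numbered libraries without those against their labels and -0.15 to 0.0377 with 1 left out, and Stat3 (-0.0102) was -0.0348 to 0.0155. Sphk1 between SFN-fed cKOAstro and ConAstro was -2.55 to 0.239. The interaction of Lcn2 (-5.41) was 4.0 among numbered libraries and 4.39 among those without the libraries against their labels. The r of Stat3 and Socs3 was -0.0493 less the group mean. The cause was not tested.

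Deviations of same-numbered libraries of different groups had r of -0.211 to 0.336, and in no comparison over 0.1 in every pair. The number was therefore not used as a pairing in the main tests. With 4 to 7 pairs per comparison this cannot tell whether some libraries share a litter or preparation. With the replicate block, 0 members and 0 of all genes passed between name series. The median of the members there was 0.153, Stat3 on the control diet was 0.008 and Gfap on SFN 0.0157. The block added no call in the comparisons of genotype and diet. The low counts of Lcn2, Sphk1, Slc10a6 and Timp1 limit their precision.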

Other observations

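The genes below are no members and were picked after their values were seen, as genes that glucocorticoids induce, like Fkbp5. Of these, Tsc22d3, Hif3a and Cdkn1a spanned 248 to 1096, 15.4 to 201 and 17.1 to 465 CPM over the 23 libraries. Plin4 and Zbtb16 are given by library. Plin4, a lipid droplet protein, was at 408 CPM in cKOAstro 2, 207 in cKOAstro 4, 351 in the library labelled SFN-fed cKOAstro 2, 473 in SFN-fed cKOAstro 5 and 335 in SFN-fed cKOAstro 6, and at 6.14 to 53.2 CPM in the other 18 libraries. Fkbp5 in those 5 libraries was at 159, 49.2, 121, 251 and 87.8 CPM. Zbtb16, a transcription factor, was at 211, 115, 119, 231 and 123 CPM in them and at 10.7 to 81.8 CPM in the rest. Of the 5, 4 are Astro-named and the other is the library labelled SFN-fed cKOAstro 2. The Astro-named libraries SFN-fed ConAstro 1 and SFN-fed cKOAstro 4 held 26.4 and 12.3 CPM of Plin4. ConAstro 3 held 108 CPM of Fkbp5, 53.2 CPM of Plin4 and 81.8 CPM of Zbtb16. The library labelled SFN-fed ConAstro 1 held summed microglia and macrophage markers of 3558 CPM, against 417 to 694 CPM in the other 5 Astro-named libraries.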
